A study of Mus musculus with 16 samples.

Results

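Arginine and tryptophan are amino acids that T cells need in order to divide, and several enzymes made by myeloid cells and tumor cells break them down. The messenger RNAs of 9 genes of arginine and tryptophan catabolism (Arg1, Arg2, Nos2, Ass1, Slc7a2, Ido1, Kynu, Kmo and Il4i1) were followed in B16F10 melanoma tumors. They were selected by gene symbol from the 18929 genes of the deposited expression table, and all 9 were listed there. B16F10 is a pigmented mouse melanoma line. The cells were implanted at the abdomen of C57BL/6 mice, females aged 7 to 8 weeks, and treatment began at a tumor volume of 50 mm3. Each of 4 groups held 4 sequenced tumors: vehicle (corn oil with an isotype control antibody), anti-PD1 (a monoclonal antibody against the PD1 receptor of T cells), α-KG (α-ketoglutarate, 100 mg/kg) and both agents together (α-KG + anti-PD1, or the combination), with treatment for 9 to 11 days. The hosts kept their own immune cells, and each value is that of whole tumor tissue, with no sorting of cells.

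Arginine is split to ornithine and urea by the arginases (Arg1 in the cytosol, Arg2 in mitochondria), or is oxidized to citrulline and nitric oxide by the inducible nitric oxide synthase (Nos2). Slc7a2 carries arginine and other cationic amino acids into the cell, and Ass1 catalyzes the first step by which citrulline is made back into arginine. Tryptophan is opened by Ido1 to the kynurenine route, on which Kmo and Kynu are later enzymes, and Il4i1 is a secreted oxidase of phenylalanine that also accepts tryptophan. Arg1, Nos2 and Slc7a2 are well known in activated macrophages, where the cytokines IL-4 and IL-13 favor Arg1, and interferon γ with bacterial products favors Nos2.

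In the mouse genome build GRCm38 (mm10), RefSeq places the arginine genes at chr10:24915207-24927470 (Arg1), chr12:79130788-79156301 (Arg2), chr11:78920787-78960226 (Nos2), chr2:31470270-31520670 (Ass1) and chr8:40862341-40922070 (Slc7a2). The tryptophan genes lie at chr8:24584133-24596952 (Ido1), chr2:43555258-43683048 (Kynu), chr1:175632193-175660853 (Kmo) and chr7:44836288-44840809 (Il4i1). All are protein-coding.

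Levels were given as FPKM, a read measure corrected for gene length and sequencing yield, and this allows levels of different genes to be set beside each other. Group differences were taken in log2(FPKM + 1), which makes the change of genes near or under 1 FPKM look smaller. They were tested with limma, and p was corrected (Benjamini-Hochberg) across 12850 genes, those with 0.5 FPKM or more in 4 or more tumors. A gene was called higher or lower at an adjusted p under 0.05. Arg1, Arg2, Nos2, Ass1, Slc7a2 and Kmo were tested. Ido1, Kynu and Il4i1 lay below the filter. Kmo passed with exactly 4 tumors at 0.5 FPKM or more, Slc7a2 with 11, Arg2 with 12 and Nos2 with 14.

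The FPKM values summed to 578171 to 635205 in vehicle, 549740 to 651386 with anti-PD1, 581805 to 654772 with α-KG and 514180 to 527812 with the combination. The number of reads behind them is unknown. All 10 melanocyte markers were expressed, with summed levels of 8147 to 11080 FPKM over the 16 tumors. Skeletal muscle markers summed to 79.4 to 990 FPKM in vehicle tumors, against 2.98 to 4.42 in anti-PD1 and 4.02 to 4.91 in α-KG tumors. With the combination they summed to 5.19 to 107 FPKM, and tumors 1 and 2 (mean log2 marker level 3.15 and 2.52) were near vehicle tumors 1, 2 and 3 (2.85, 2.82 and 3.19). The tumors of the combination also stood apart in red cell RNA, whose 9 markers, the globins included, summed to 10925 to 11783 FPKM there and to 23364 to 145450 in the other groups, and 9 of 9 were called lower than vehicle. The part of muscle and red cell RNA in the results was not tested. The tumors also differed in the RNA of leukocytes, whose 10 markers summed to 351 to 499 FPKM in vehicle, 498 to 739 with anti-PD1, 894 to 958 with α-KG and 608 to 1514 with the combination. In such whole tumors, fewer cells of a type and less RNA per cell cannot be told apart.

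Arg1 was the most abundant of the 9 genes in 13 of the 16 tumors (Ass1 exceeded it in vehicle tumors 3 and 4, and Nos2 in α-KG + anti-PD1 tumor 1). The vehicle tumors had 20.65, 20.49, 7.78 and 6.31 FPKM, and the anti-PD1 tumors 41.62, 37.34, 63.23 and 64.61. The α-KG tumors had 76.77, 55.60, 35.00 and 58.54 FPKM, and the α-KG + anti-PD1 tumors 23.21, 26.28, 49.14 and 21.01. Every treated tumor lay above every vehicle tumor. The order of the means was α-KG (56.5 ± 17.1 FPKM, SD, n = 4), anti-PD1 (51.7 ± 14.2), α-KG + anti-PD1 (29.9 ± 13.0) and vehicle (13.8 ± 7.83).

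Against vehicle, Arg1 was higher with anti-PD1 by 1.96 on the log2 scale (SE 0.364, 95% confidence interval 1.19 to 2.74, adjusted p = 0.0334, limma). It was higher with α-KG by 2.08 (adjusted p = 0.00107, limma) and with α-KG + anti-PD1 by 1.15 (adjusted p = 0.0184, limma). Its levels with α-KG and with anti-PD1 alone differed by 0.11 (adjusted p = 0.892, limma), less than the spread between tumors. The combination differed from α-KG by -0.92 (95% interval -1.70 to -0.15, adjusted p = 0.0563, limma), and against anti-PD1 the difference was -0.81 (adjusted p = 0.130, limma). The effect of anti-PD1 on Arg1 differed with and without α-KG: the interaction was -2.89 (adjusted p = 0.0036, limma). The 3 treated groups were set against 1 set of 4 vehicle tumors, so these differences are not independent. Of the vehicle tumors, 3 and 4 were low in Arg1 and also in leukocyte markers (mean log2 marker level 2.82 and 2.84, against 4.36 and 3.85 in tumors 1 and 2). Macrophage markers, of which none was at 0 in all tumors, summed to 134 to 618 FPKM in vehicle, 639 to 1122 with anti-PD1, 774 to 1159 with α-KG and 937 to 2461 with the combination, and 2, 5 and 10 of 10 were called higher than vehicle. Their part in the level of Arg1 was not tested.

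The anti-PD1 call of Arg1 was close to the threshold. The adjusted p ranged from 0.0511 to 0.125 in limma without vehicle tumor 3 (difference 1.77) or 4 (1.68), without anti-PD1 tumor 2 (2.10), 3 (1.85) or 4 (1.84), or without α-KG tumor 1 (1.96) or 3 (1.96), and it was 0.0864 when no gene was filtered out. Over all settings it ran from 0.011 to 1. That of the combination was lost without vehicle tumor 3 (0.96), vehicle tumor 4 (0.87) or α-KG + anti-PD1 tumor 3 (0.89), at adjusted p of 0.0657, 0.0717 and 0.0669 in limma. Conversely, the gap between the combination and α-KG alone passed the threshold without vehicle tumor 1, 2 or 4 (-0.92 each), α-KG tumor 3 (-1.13) or tumor 3 of the combination (-1.18), at adjusted p from 0.0252 to 0.0482.

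Arg2, the mitochondrial arginase, was higher than vehicle in 1 treated group, that given α-KG alone. The vehicle tumors had 0.28, 0.58, 0.20 and 0.29 FPKM, and the anti-PD1 tumors 0.72, 0.81, 0.60 and 0.56. In α-KG tumors the values were 13.82, 10.08, 14.09 and 25.14 FPKM, and in α-KG + anti-PD1 tumors 0.90, 0.29, 0.71 and 1.38. Each tumor given α-KG alone was thus above every tumor of the other 3 groups, with a mean of 15.8 ± 6.50 FPKM against 0.338 ± 0.167 with vehicle, 0.673 ± 0.114 with anti-PD1 and 0.820 ± 0.452 with the combination (SD, n = 4 each).

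The difference in Arg2 between α-KG and vehicle was 3.58 (SE 0.218, 95% interval 3.12 to 4.05, adjusted p = 7.95e-08, limma), and between α-KG and anti-PD1 3.26 (adjusted p = 3.41e-07, limma). With anti-PD1 added to α-KG, Arg2 was lower than with α-KG alone (-3.17, adjusted p = 4.07e-07, limma), and the interaction was -3.49 (adjusted p = 1.68e-05, limma). The combination lay 0.42 from vehicle (95% interval -0.05 to 0.88, adjusted p = 0.129, limma), anti-PD1 0.33 (adjusted p = 0.469, limma), and the combination 0.09 from anti-PD1 (adjusted p = 0.799, limma). The calls of Arg2 (α-KG against vehicle and anti-PD1, the combination against α-KG, and the interaction) held without any single tumor. When 0.1 instead of 1 was added before taking logs, the combination against vehicle passed the threshold as well (0.99, adjusted p = 0.0394, limma).

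Arg2 made up 15.3% to 30.04% of the arginase FPKM of each α-KG tumor (median 22.02%). Its share was 1.34% to 4.39% in vehicle, 0.859% to 2.12% in anti-PD1 and 1.09% to 6.16% with the combination, so that Arg1 was the main arginase message throughout.

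**Figure D1:**
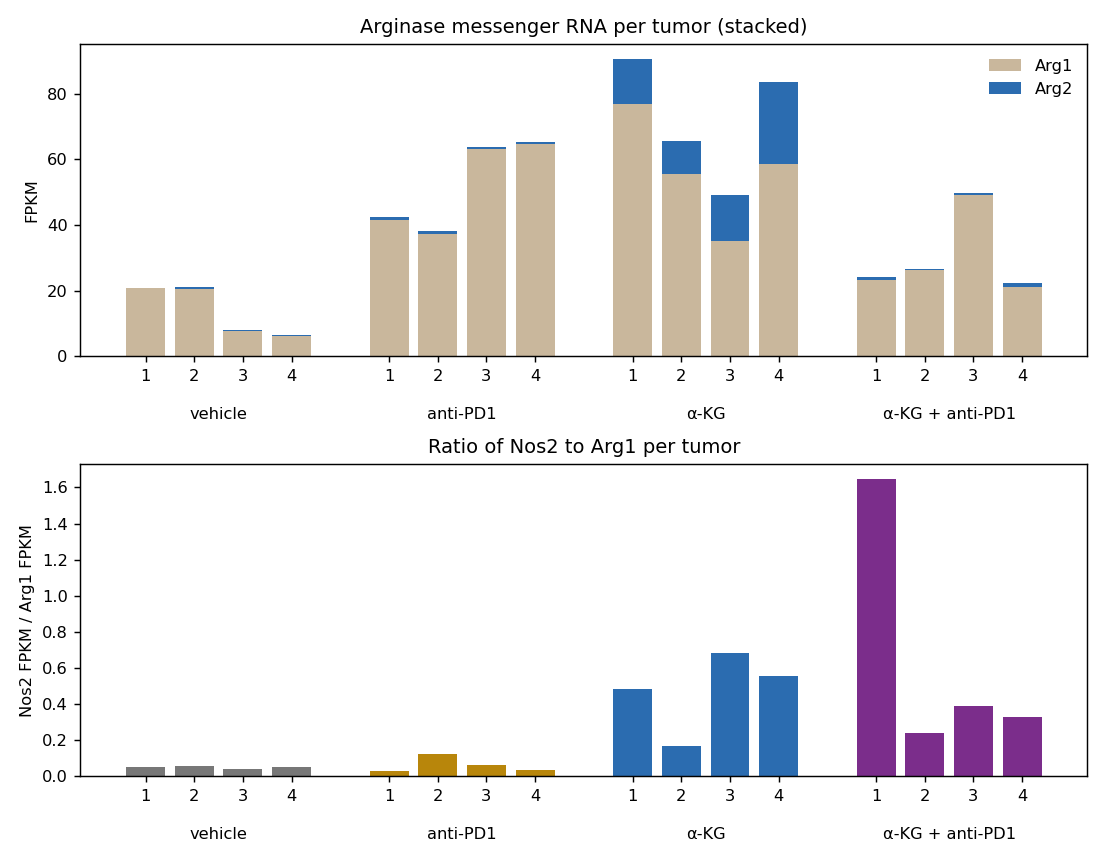
The upper panel stacks the FPKM of Arg1 and Arg2 for each of the 16 tumors, and the lower panel gives the ratio of Nos2 FPKM to Arg1 FPKM in the same tumors, both from 0. A visible Arg2 portion appears in the 4 α-KG tumors, where it is 15.3% to 30.04% of the stack, and the ratio of Nos2 to Arg1 is highest in α-KG + anti-PD1 tumor 1, at 1.65.

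Neutrophil markers moved with Arg2. The 10 markers (among them S100a8, S100a9, Csf3r and Cxcr2) summed to 1092 to 2896 FPKM in α-KG tumors, 25.1 to 43.2 in vehicle, 26.4 to 107.6 in anti-PD1 and 34.8 to 115 with the combination, and no marker was at 0 in all tumors. Of 9 tested, 9 were higher in α-KG than in vehicle and 9 were lower in α-KG + anti-PD1 than in α-KG. S100a8 differed by 6.04 between α-KG and vehicle (adjusted p = 4.89e-06, limma) and by -5.67 between the combination and α-KG (adjusted p = 2.98e-05, limma). In the α-KG group the lowest Arg2 value (10.08 FPKM) belonged to tumor 2, which also had the lowest mean marker level (4.27 on the log2 scale). With the leukocyte marker level as a covariate the differences of Arg2 were 3.49 between α-KG and vehicle (adjusted p = 0.000661, limma), -3.17 between the combination and α-KG, and -3.44 for the interaction. With the neutrophil marker level as a covariate, a setting chosen after seeing the data, the α-KG difference was 1.54 (adjusted p = 0.461, limma, over all settings 2.98e-08 to 0.461), and limma called 0 of 12850 genes in that comparison, with 1332 at an unadjusted p under 0.05. The part of neutrophil RNA in the change of Arg2 cannot be told apart from that of the treatment in this design.

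**Figure D2:**
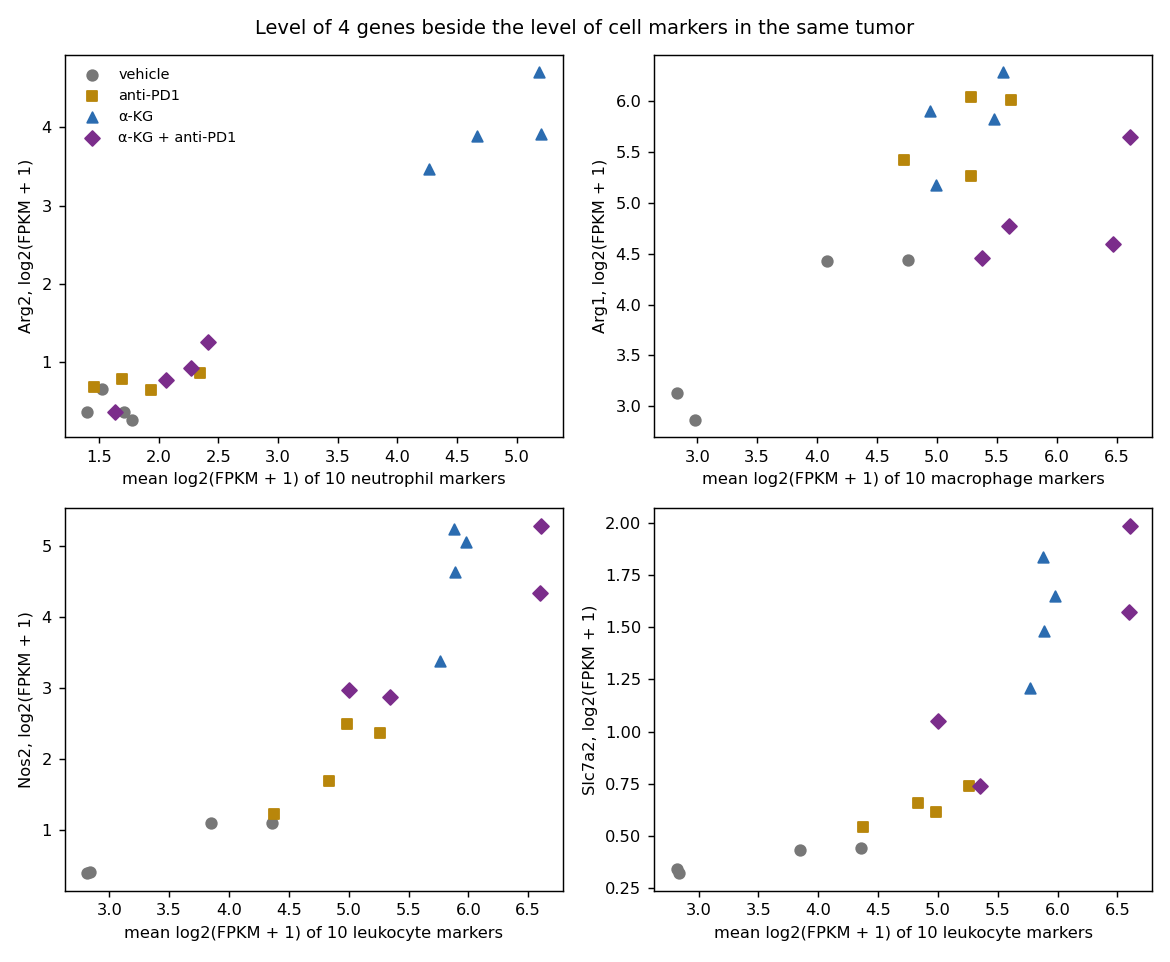
Each point is 1 of the 16 tumors, with the mean log2(FPKM + 1) of 10 neutrophil, macrophage or leukocyte markers on the x axis and the log2(FPKM + 1) of Arg2, Arg1, Nos2 or Slc7a2 on the y axis. The 4 α-KG tumors stand apart in the Arg2 panel, at marker levels from 4.27 to 5.20 against at most 2.41 elsewhere, while Nos2 and Slc7a2 lie higher in tumors with more leukocyte marker RNA.

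Nos2, which competes with the arginases for arginine, rose in both groups given α-KG. The vehicle tumors had 1.14, 1.15, 0.31 and 0.33 FPKM, and the anti-PD1 tumors 1.35, 4.67, 4.16 and 2.23. Values were 36.99, 9.40, 23.84 and 32.55 FPKM in α-KG tumors and 38.20, 6.32, 19.30 and 6.89 in α-KG + anti-PD1 tumors. All 8 tumors with α-KG lay above all 8 without it, and the α-KG + anti-PD1 group split into high tumors (1 and 3) and lower ones (2 and 4). The means were 25.7 ± 12.2 FPKM with α-KG, 17.7 ± 14.9 with the combination, 3.10 ± 1.57 with anti-PD1 and 0.733 ± 0.476 with vehicle (SD, n = 4 each).

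The log2 difference of Nos2 from vehicle was 3.83 with α-KG (SE 0.502, 95% interval 2.76 to 4.90, adjusted p = 7.26e-05, limma) and 3.12 with α-KG + anti-PD1 (adjusted p = 0.000491, limma). Against anti-PD1 alone it was 2.63 with α-KG (adjusted p = 0.00549, limma) and 1.92 with the combination (adjusted p = 0.0249, limma). Other neighbors in the order of means did not pass the threshold: the combination against α-KG gave -0.71 (adjusted p = 0.278, limma) and anti-PD1 against vehicle 1.20 (adjusted p = 0.248, limma), the latter without overlap between the groups. The interaction was -1.91 (adjusted p = 0.0907, limma), and it passed the threshold without α-KG tumor 2 (-2.31, adjusted p = 0.043) and also without tumor 1 of the combination (-2.38, adjusted p = 0.0257). The call of the combination against anti-PD1 was lost without anti-PD1 tumor 1 (1.69) or 4 (1.84) and without α-KG + anti-PD1 tumor 1 (1.45) or 3 (1.77), at adjusted p from 0.0595 to 0.0951 in limma.

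The FPKM ratio of Nos2 to Arg1 was 0.0399 to 0.0561 in vehicle, 0.0324 to 0.125 with anti-PD1, 0.169 to 0.681 with α-KG and 0.241 to 1.65 with the combination. The ratios of the 8 tumors given α-KG were all higher than those of the other 8. Nos2 exceeded Arg1 in 1 tumor, α-KG + anti-PD1 tumor 1, where the values were 38.20 and 23.21 FPKM.

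Slc7a2, a transporter that carries arginine into cells, rose in the same comparisons as Nos2, at lower levels. The vehicle tumors had 0.36, 0.35, 0.27 and 0.25 FPKM, and the anti-PD1 tumors 0.46, 0.53, 0.67 and 0.58. With α-KG the values were 2.57, 1.31, 1.79 and 2.14 FPKM, and with α-KG + anti-PD1 2.96, 0.67, 1.98 and 1.07. As for Nos2, the high tumors of the combination were 1 and 3 and the low ones 2 and 4, tumor 2 reaching only the highest anti-PD1 value. The group means were 1.95 ± 0.534 FPKM with α-KG, 1.67 ± 1.02 with the combination, 0.560 ± 0.0883 with anti-PD1 and 0.308 ± 0.0556 with vehicle (SD, n = 4 each).

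Against vehicle, Slc7a2 was higher with α-KG by 1.16 (SE 0.206, adjusted p = 0.00124, limma) and with the combination by 0.95 (adjusted p = 0.00226, limma), and anti-PD1 gave 0.25 (adjusted p = 0.558, limma). Against anti-PD1 it was higher with α-KG by 0.90 (adjusted p = 0.0219, limma) and with the combination by 0.70 (adjusted p = 0.0364, limma), while the combination and α-KG differed by -0.21 (adjusted p = 0.451, limma). Both calls against anti-PD1 depended on single tumors. That of α-KG was lost without anti-PD1 tumor 1 (0.87), 2 (0.90) or 4 (0.91) and without α-KG tumor 1 (0.81), 3 (0.93) or 4 (0.87), at adjusted p from 0.053 to 0.0873. That of the combination was lost without anti-PD1 tumor 1 (0.67) or 4 (0.70) and without α-KG + anti-PD1 tumor 1 (0.48) or 3 (0.62), at adjusted p from 0.0899 to 0.114 in limma.

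Leukocyte RNA moved with Nos2 and Slc7a2. Of the 10 leukocyte markers, 9 were higher than in vehicle with α-KG and 9 with α-KG + anti-PD1, against 1 with anti-PD1, and none was at 0 in all tumors. Among the α-KG + anti-PD1 tumors, 1 and 3 had the highest mean marker level (6.6 and 6.59 on the log2 scale, against 5.35 and 5.00 in 2 and 4), as they had for Nos2 and Slc7a2. With that marker level as a covariate, the Nos2 difference from vehicle was 1.39 for α-KG (adjusted p = 0.269, limma, over all settings 1.89e-05 to 0.833) and 0.66 for the combination (adjusted p = 0.987, limma, over all settings 0.000234 to 0.987). The Slc7a2 differences became 0.33 (adjusted p = 0.589, limma, over all settings 0.000185 to 0.903) and 0.12 (adjusted p = 0.996, limma, over all settings 0.000699 to 0.996). For Arg1 the same covariate gave 0.50 for α-KG (adjusted p = 0.618, limma, over all settings 0.000532 to 0.618) and -0.43 for the combination (adjusted p = 0.987, limma, over all settings 0.00638 to 0.987), and its interaction stayed called at -1.98 (adjusted p = 0.0109, limma, over all settings 0.00147 to 0.378). For the combination against vehicle this covariate left 0 calls over all genes. For α-KG against vehicle it left 308, where 2048 were called without it. Calls lost in these comparisons are therefore not particular to these genes. The mean leukocyte marker level was 2.82 to 4.36 in vehicle and 5.77 to 5.98 in α-KG tumors, without overlap. The covariate and the α-KG treatment therefore cannot be told apart in this design. Whether the messages changed per leukocyte was not tested.

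Ass1, unlike Nos2 and Slc7a2, was well expressed in tumors without α-KG. Vehicle tumors had 11.26, 12.56, 11.49 and 11.89 FPKM, and anti-PD1 tumors 13.79, 12.57, 13.24 and 10.53. The α-KG tumors had 26.42, 15.63, 21.28 and 21.94 FPKM, all above every vehicle and anti-PD1 tumor, and the α-KG + anti-PD1 tumors 29.44, 9.77, 21.32 and 14.39, spread from below the vehicle range to the highest value of all. Means were 21.3 ± 4.43 FPKM with α-KG, 18.7 ± 8.57 with the combination, 12.5 ± 1.43 with anti-PD1 and 11.8 ± 0.570 with vehicle (SD, n = 4 each).

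Ass1 was called higher with α-KG than with vehicle by 0.78 (SE 0.234, adjusted p = 0.0334, limma). The combination against vehicle gave 0.52 (adjusted p = 0.0824, limma), α-KG against anti-PD1 0.71 (adjusted p = 0.147, limma), the combination against anti-PD1 0.44 (adjusted p = 0.192, limma), the combination against α-KG -0.26 (adjusted p = 0.396, limma), and anti-PD1 against vehicle 0.08 (adjusted p = 0.894, limma). The call of Ass1 was lost without vehicle tumor 1 (0.76), 2 (0.81), 3 (0.77) or 4 (0.78) and without α-KG tumor 1 (0.67), 3 (0.77) or 4 (0.76), at adjusted p from 0.0516 to 0.093 in limma. Without α-KG + anti-PD1 tumor 2, which had 9.77 FPKM, the combination was called higher than vehicle (0.77, adjusted p = 0.0068, limma) and than anti-PD1 (0.70, adjusted p = 0.0387, limma), and α-KG higher than anti-PD1 (0.71, adjusted p = 0.0433, limma). With the leukocyte marker level as a covariate, the α-KG difference was 0.00 (adjusted p = 0.997, limma, over all settings 0.00809 to 0.997). Over all genes that fit called 308 for α-KG against vehicle, where 2048 were called without the covariate, so the lost call is not particular to Ass1.

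The promoters of Ass1 and Kmo are shown because Ass1 was called in the α-KG and Kmo in the α-KG + anti-PD1 comparison with vehicle, and only 3 of the 9 genes (Ass1, Kmo and Il4i1) had a promoter in the RefSeq table used (GRCm38.p6). Each is the 250 bases before the start of the gene, on the plus strand: chr2:31470020-31470269 for Ass1 and chr1:175631943-175632192 for Kmo. Capitals mark the letters ACGTG, the core bound by hypoxia-inducible factors, and GCGTG, the core bound by the aryl hydrocarbon receptor (a receptor for kynurenine), on either strand.

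Ass1: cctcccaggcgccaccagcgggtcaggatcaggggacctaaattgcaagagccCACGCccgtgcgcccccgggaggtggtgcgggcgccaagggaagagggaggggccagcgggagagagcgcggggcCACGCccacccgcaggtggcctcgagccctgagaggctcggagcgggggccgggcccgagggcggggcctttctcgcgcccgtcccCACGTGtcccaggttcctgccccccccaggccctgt
Kmo: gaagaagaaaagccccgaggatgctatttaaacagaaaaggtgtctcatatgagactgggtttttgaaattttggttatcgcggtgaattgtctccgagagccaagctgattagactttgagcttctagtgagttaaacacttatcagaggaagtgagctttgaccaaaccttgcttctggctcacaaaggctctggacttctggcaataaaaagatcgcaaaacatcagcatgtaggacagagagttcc

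In the Ass1 promoter, CACGTG at -36 to -31 holds ACGTG on both strands in overlapping matches, and GCGTG lies on the minus strand, printed as CACGC, at -197 to -193 and at -122 to -118. The 250 bases of Kmo and of Il4i1 hold neither. Of 27025 promoters of this length, 16.6% hold ACGTG and 28.2% GCGTG. The Ass1 promoter is 75.6% G and C, and that of Kmo 42.8%. TTCNNNGAA (found in 7.18% of promoters), TTGCNNAA (9.55%) and TGANTCA (6.87%) were also searched on both strands and were not in any of the 3 promoters. A match of letters is not evidence of binding.

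The tryptophan genes were expressed at far lower levels than Arg1. Ido1 was listed at 0 in 13 of 16 tumors, including all vehicle and all anti-PD1 tumors. The other 3 tumors were α-KG tumor 1 (0.05 FPKM) and α-KG + anti-PD1 tumors 1 and 3 (0.06 and 0.13). Interferon γ is the classical inducer of Ido1, and its gene Ifng averaged 0.290 FPKM in vehicle, 1.26 with anti-PD1, 0.320 with α-KG and 7.91 with the combination, being called higher in the combination than in vehicle (adjusted p = 0.000946, limma). Cd274, another interferon γ target, had means of 4.41, 10.2, 27.2 and 26.5 FPKM in the same order. In the tumors with the most Ifng message as a group, Ido1 thus reached at most 0.13 FPKM.

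Kmo, which turns kynurenine to 3-hydroxykynurenine, had the highest mean of the 4 tryptophan genes in every group. Vehicle tumors had 0.38, 0.08, 0.08 and 0 FPKM, anti-PD1 tumors 0.34, 0.21, 0.45 and 0.54, and α-KG tumors 0.45, 0.92, 0.34 and 0.31. In the α-KG + anti-PD1 group, tumors 1 and 3 had 2.51 and 2.45 FPKM and tumors 2 and 4 0.38 and 0.44. The mean of the combination (1.45 ± 1.20 FPKM, SD, n = 4) therefore rests on tumors 1 and 3, which were also the highest in leukocyte markers, and tumor 2 equals the highest vehicle tumor. The difference from vehicle was called (0.98, SE 0.269, adjusted p = 0.00897, limma), although the groups overlapped. Kmo passed the filter only through anti-PD1 tumor 4, α-KG tumor 2 and tumors 1 and 3 of the combination. With any 1 of these left out it fell below the filter. The call could therefore not be checked without tumor 1 or 3 of the combination. Against vehicle, α-KG gave 0.40 (adjusted p = 0.343, limma) and anti-PD1 0.29 (adjusted p = 0.605, limma). The combination against anti-PD1 gave 0.68 (adjusted p = 0.0894, limma), and it passed the threshold without α-KG + anti-PD1 tumor 2 (0.91, adjusted p = 0.041) or 4 (0.89, adjusted p = 0.0298). With the leukocyte marker level as a covariate, the difference of the combination from vehicle was -0.26 (adjusted p = 0.987, limma, over all settings 0.00276 to 0.987). That fit called 0 over all genes in this comparison, so the lost call is not particular to Kmo.

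Kynu, the kynureninase, stayed at 0.52 FPKM or less. Its values were 0.03, 0.05, 0 and 0.09 FPKM in vehicle, 0.05, 0.05, 0.22 and 0.16 with anti-PD1, 0.09, 0.24, 0.11 and 0.10 with α-KG and 0.38, 0.05, 0.52 and 0.12 with the combination, where tumors 1 and 3 were again the highest. Il4i1 had 0, 0.10, 0 and 0 FPKM in vehicle and 0, 0, 0.10 and 0 in anti-PD1 tumors. It had 0.78, 0, 0.36 and 0.46 in α-KG and 0.16, 0.25, 0.43 and 0.23 in α-KG + anti-PD1 tumors, so that every tumor of the combination lay above the groups without α-KG. When genes of every level entered the fit, Kynu differed by 0.27 between the combination and vehicle (adjusted p = 0.046, limma) and Il4i1 by 0.42 between α-KG and vehicle (adjusted p = 0.0452, limma), and Il4i1 in the combination by 0.30 (adjusted p = 0.0772, limma). Values this low are imprecise, and differences in Ido1 were not detectable at these levels (0.07 between the combination and vehicle, adjusted p = 0.133, limma).

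**Figure D3:**
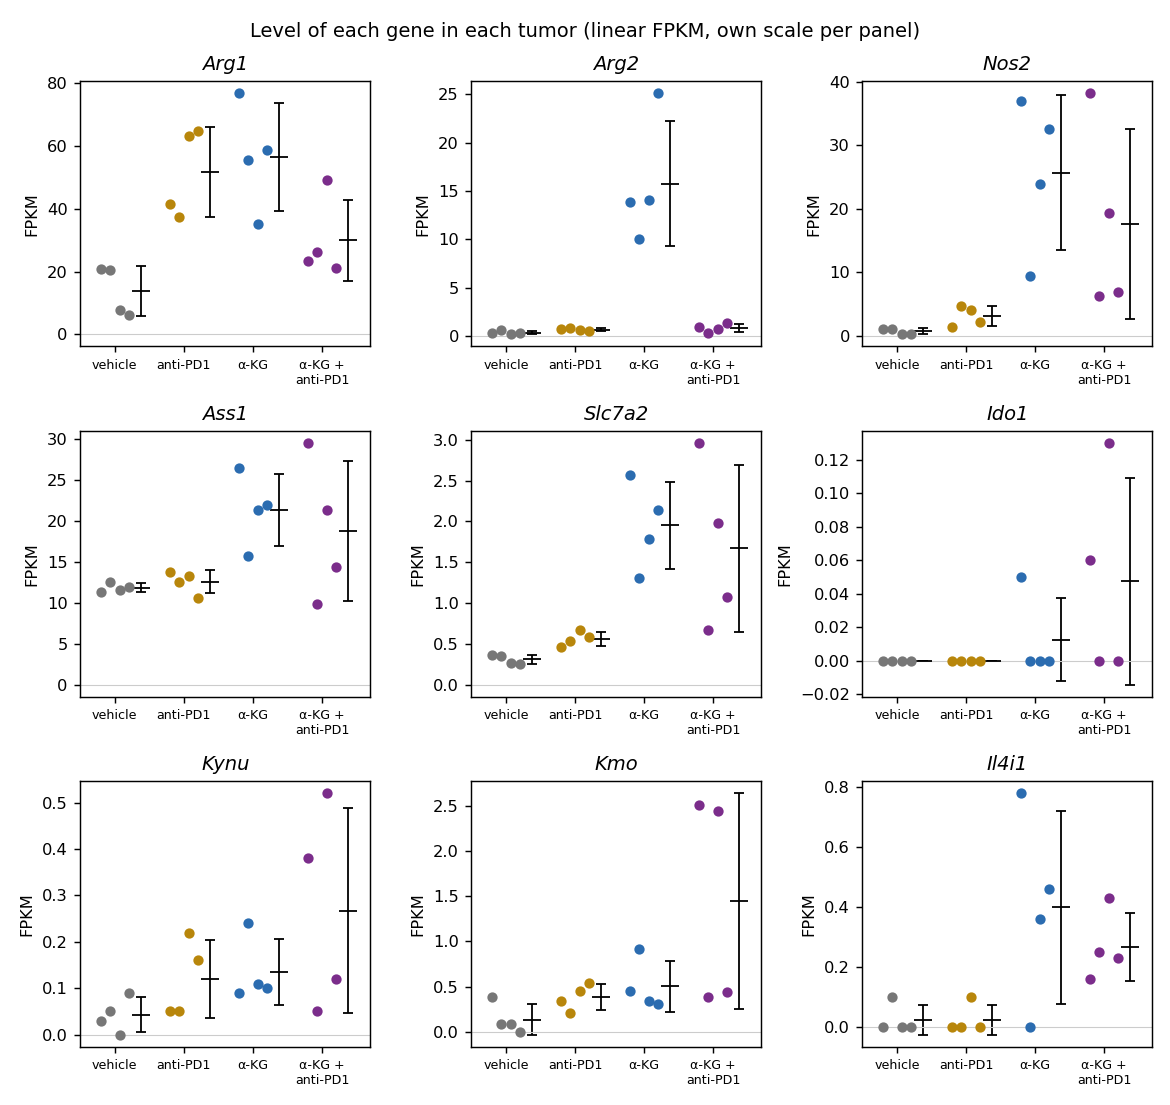
Each panel gives the FPKM of 1 gene in each of the 16 tumors, in tumor order within the 4 groups, with the mean and SD of each group as a horizontal mark and bar beside its points, on a linear scale of its own. Arg2 is high in the 4 α-KG tumors only, Nos2 and Slc7a2 are high in both groups with α-KG, and Ido1 does not exceed 0.13 FPKM.

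Counted over the 9 genes, anti-PD1 against vehicle gave 1 higher gene (Arg1), where 0.467% of the 12850 tested genes were called higher and 0.28% lower. α-KG against vehicle gave 5 higher genes (Arg1, Arg2, Nos2, Ass1 and Slc7a2) beside 8.4% of all genes higher and 7.53% lower. α-KG + anti-PD1 against vehicle gave 4 higher genes (Arg1, Nos2, Slc7a2 and Kmo) beside 34.9% of all genes higher and 10.5% lower, so that being called there is common. Against anti-PD1, 3 genes were higher with α-KG (Arg2, Nos2 and Slc7a2) beside 2.8% of all genes higher and 0.358% lower. With the combination 2 were higher (Nos2 and Slc7a2), beside 14.2% of all genes higher and 1.31% lower. Against α-KG, 1 gene was lower with the combination (Arg2), where 6.47% of all genes were called lower and 31.8% higher. The interaction was called negative for 2 genes (Arg1 and Arg2), where 3.13% of all genes had a negative and 7.99% a positive call.

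The median difference of the 6 tested genes was 0.31 for anti-PD1, 1.62 for α-KG and 0.96 for the combination against vehicle, beside medians over all genes tested of 0.03, -0.04 and 0.15. For the combination against α-KG the median was -0.49, beside 0.16 over all genes, and for the interaction -1.18 beside 0.15. The list was small and its genes were chosen with earlier results of these tumors known, so these medians are a description.

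**Figure D4:**
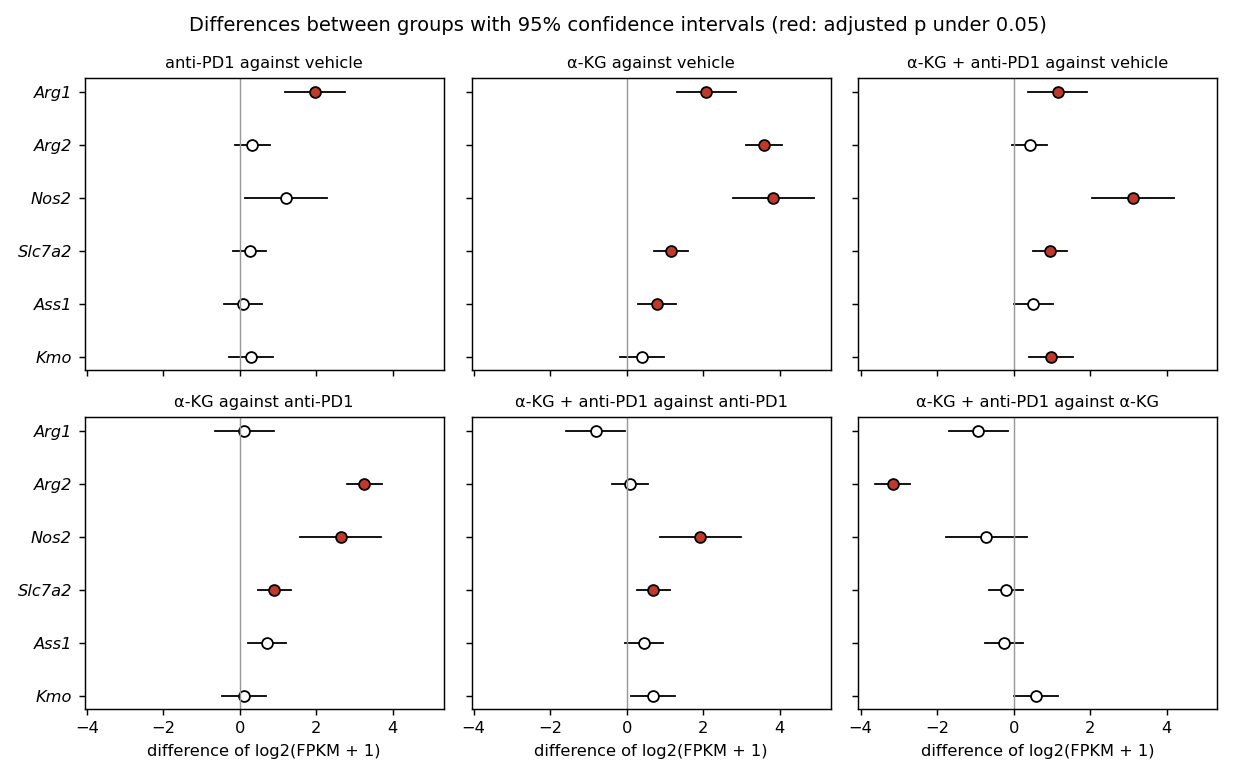
Points are differences of mean log2(FPKM + 1) between groups for the 6 tested genes, with 95% confidence intervals, in the 6 pairwise comparisons, and red points have an adjusted p under 0.05 in limma. Against vehicle, 1, 5 and 4 genes are red for anti-PD1, α-KG and the combination, and Arg2 alone is red in the comparison of the combination with α-KG.

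Of 35 other genes of arginine, polyamine and nitric oxide metabolism, 28 were expressed above the filter. The other 7, below it, were Otc, Cps1 and Nags of the urea cycle, the carrier Slc7a3, Agmat, and Nos1 and Nos3, the other nitric oxide synthases. With anti-PD1 against vehicle limma called 0 of the 28, and 4 had an unadjusted p under 0.05. With α-KG against vehicle, 3 were higher and 1 was lower, beside 8.4% of all genes higher and 7.53% lower. Smox, the spermine oxidase that breaks down polyamines made from ornithine, had the pattern of Arg2. It had 15.65, 19.52, 22.64 and 21.49 FPKM in vehicle, 23.51, 23.09, 18.86 and 21.90 with anti-PD1, 56.54, 41.50, 57.56 and 90.71 with α-KG and 20.27, 19.09, 21.44 and 18.48 with the combination. Again only the 4 α-KG tumors stood above the rest. Its difference was 1.54 for α-KG against vehicle (adjusted p = 1.55e-05, limma), -1.53 for the combination against α-KG (adjusted p = 4.53e-05, limma) and -1.68 for the interaction (adjusted p = 0.00073, limma). Smox lost these calls with the neutrophil covariate, where the α-KG difference was 0.0007 (adjusted p = 1, limma, over all settings 2.42e-06 to 1). That covariate left 0 calls over all genes in each of these comparisons, so the loss is not particular to Smox.

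Sat1, which acetylates spermidine and spermine, was higher with α-KG by 0.84 (adjusted p = 0.00153, limma) and with the combination by 1.00 (adjusted p = 0.00046, limma). With the leukocyte marker level as a covariate, the α-KG difference of Sat1 was -0.0042 (adjusted p = 0.993, limma, over all settings 0.000439 to 0.993), that of Gch1, described next, also turned (-0.19, adjusted p = 0.634, over all settings 0.0341 to 0.741), and limma called 1 gene of the 28 for α-KG, Smox. Gch1, the first enzyme of the synthesis of tetrahydrobiopterin, a cofactor of nitric oxide synthases, was higher with α-KG by 0.44 (adjusted p = 0.0496, limma), and Asl, which follows Ass1 in arginine synthesis, was lower (-0.26, adjusted p = 0.0337, limma). Both were borderline: the call of Gch1 stayed only when vehicle tumor 2, anti-PD1 tumor 4 or tumor 1, 3 or 4 of the combination was the one left out (otherwise 0.39 to 0.47, adjusted p from 0.0528 to 0.142), and that of Asl was lost without vehicle tumor 1, 2 or 4 or α-KG tumor 3 or 4 (-0.27 to -0.22, adjusted p from 0.053 to 0.102). With α-KG + anti-PD1 against vehicle, 6 of the 28 were higher and 7 lower, beside 34.9% of all genes higher and 10.5% lower, so that in both directions together about as large a share was called over all genes as in the list. Gatm, which uses arginine for creatine synthesis, was the highest of them (1.88, adjusted p = 0.00188, limma): its means were 1.52 FPKM with vehicle, 4.11 with anti-PD1, 2.01 with α-KG and 7.74 with the combination. Ddah1, which degrades inhibitors of nitric oxide synthases, Srm, the spermidine synthase, and Oat, the ornithine aminotransferase, were lower (-0.79, -0.56 and -0.48, adjusted p = 0.00114, 0.00506 and 0.00718, limma). With the leukocyte marker level as a covariate, limma called 0 of the 28 for the combination, where 1 had an unadjusted p under 0.05. Over all genes it also called 0 there (588 at an unadjusted p under 0.05), so this result is not particular to the list. For α-KG the same covariate removed most calls over all genes, as given with Ass1 above. The calls lost for α-KG are therefore not particular to the list either. The median of the 28 was -0.03 for anti-PD1, -0.04 for α-KG and -0.07 for the combination.

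Of 25 other genes of tryptophan uptake, metabolism and sensing, 15 were tested. Tdo2, Ido2, Aadat, Qprt, Tph1, Ddc, Maob, Ahrr, Cyp1a1 and Cyp1b1 lay below the filter, so that along with Ido1 none of the 3 enzymes that open the tryptophan ring was expressed above it. Slc7a8, a carrier of neutral amino acids, was higher than vehicle in all 3 treated groups: by 0.84 with anti-PD1 (adjusted p = 0.0455, limma), 1.11 with α-KG (adjusted p = 0.000518, limma) and 0.97 with the combination (adjusted p = 0.000863, limma). Slc7a5, the large neutral amino acid transporter, was lower with α-KG (-0.47, adjusted p = 0.0485, limma) and with the combination (-0.52, adjusted p = 0.0132, limma). Slc16a10, a carrier of aromatic amino acids, was higher with the combination (0.70, adjusted p = 0.00211, limma): it had 1.84, 1.69, 2.50 and 1.46 FPKM there and 1.22, 0.39, 0.72 and 0.79 in vehicle tumors, without overlap. Afmid, the formamidase that yields kynurenine, and Arnt, the partner of the aryl hydrocarbon receptor, were also higher (0.38 and 0.36, adjusted p = 0.0218 and 0.0143, limma). With quantile normalization the calls of Slc16a10 (0.24), Afmid (0.05) and Arnt (0.16) were lost (adjusted p = 0.134, 0.767 and 0.115, limma, over all settings from 0.000602, 0.00497 and 0.0053 to 0.987 each), and that of Afmid was also lost without tumor 2 of the combination (0.29, adjusted p = 0.0752). Haao, which acts below Kynu on the way to NAD, was higher with α-KG (0.76, adjusted p = 0.00836, limma). In all, anti-PD1 gave 1 higher gene, α-KG 2 higher and 1 lower, and the combination 4 higher and 4 lower of the 15. Over all genes the shares higher and lower were 0.467% and 0.28%, 8.4% and 7.53%, and 34.9% and 10.5%. In both directions together, the list was thus called about as often as all genes for α-KG and the combination. With the combination, lower calls were as many as higher ones in the list (4 each), while over all genes higher calls prevailed. With the leukocyte covariate limma called 0 of the 15 for α-KG and 0 for the combination, with 1 at an unadjusted p under 0.05 in each. For the combination that covariate left 0 calls over all genes too, so the result there is not particular to this list. For α-KG it also removed most calls over all genes, as given with Ass1 above. The α-KG result is therefore not particular to this list either. The anti-PD1 call of Slc7a8 stayed only when vehicle tumor 1 or 2 or a tumor of the combination was left out (otherwise 0.75 to 0.88, adjusted p from 0.0512 to 0.194). The α-KG call of Slc7a5 stayed only without vehicle tumor 1, anti-PD1 tumor 1 or 4, α-KG tumor 4 or tumor 3 or 4 of the combination (otherwise -0.50 to -0.36, adjusted p from 0.053 to 0.15).

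Genes of the cell's response to a shortage of amino acids, both sensors and responding genes, were also examined. Of 12 tested (among them Atf4, Asns, Chac1 and Trib3), limma called 0 with anti-PD1 against vehicle, where 1 had an unadjusted p under 0.05. With α-KG, 1 was lower (Ddit3, -0.50, adjusted p = 0.0275, limma), and with the combination Eif2ak4, the kinase that senses uncharged tRNA, was higher (0.42, adjusted p = 0.00564, limma) and Phgdh, of serine synthesis, lower (-0.41, adjusted p = 0.0379, limma). Over all genes 7.53% were called lower with α-KG, and 34.9% higher and 10.5% lower with the combination. Against α-KG, the combination gave 2 higher (Ddit3 and Eif2ak4) and 1 lower (Phgdh) of the 12, beside 31.8% and 6.47% of all genes. Ddit3, a transcription factor of the stress response, had 86.42, 99.61, 97.95 and 85.61 FPKM with the combination and 55.53, 46.95, 59.63 and 46.82 with α-KG, without overlap (0.82, adjusted p = 0.00101, limma). Against anti-PD1 (48.04, 87.56, 68.52 and 68.52 FPKM), where the groups overlapped, it was higher with the combination by 0.46 (adjusted p = 0.0417, limma), a call lost without vehicle tumor 3, anti-PD1 tumor 1, 3 or 4, α-KG tumor 1 or tumor 1, 2 or 3 of the combination (0.31 to 0.49, adjusted p from 0.0511 to 0.141). Eif2ak4 differed by 0.52 between the combination and α-KG (adjusted p = 0.00245, limma). Phgdh differed by -0.41 (adjusted p = 0.0449, limma), and this call was lost without vehicle tumor 3, anti-PD1 tumor 3 or 4, α-KG tumor 1, 3 or 4 or tumor 1, 2 or 3 of the combination (-0.45 to -0.31, adjusted p from 0.0521 to 0.135).

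Against vehicle, the call of Ddit3 was lost without vehicle tumor 2, 3 or 4 or α-KG tumor 2 or 4 (-0.51 to -0.43, adjusted p from 0.0586 to 0.0784). The call of Phgdh was lost without vehicle tumor 1, 2 or 3 or tumor 1 or 3 of the combination (-0.44 to -0.31, adjusted p from 0.0544 to 0.121). Quantile normalization ended the call of Eif2ak4 against α-KG (0.20, adjusted p = 0.141, limma, over all settings 0.00105 to 0.656) and against vehicle (0.00, adjusted p = 0.996, limma, over all settings 0.00207 to 0.996).

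**Figure D5:**
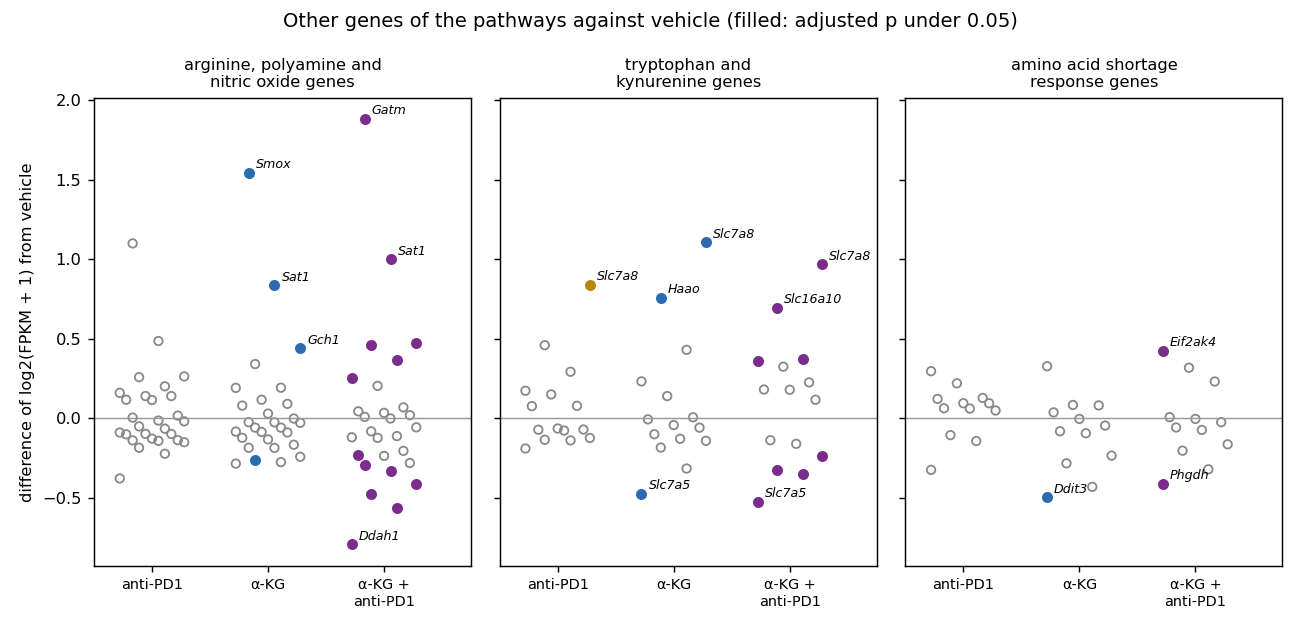
Each point is 1 tested gene of the arginine (28), tryptophan (15) or amino acid shortage (12) list, placed by its difference of log2(FPKM + 1) from vehicle in each treated group, filled where the adjusted p was under 0.05. Most points lie between -0.5 and 0.5, and Gatm, Smox, Slc7a8 and Sat1 lie farthest above 0.

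Across the 16 tumors, likeness of pattern was described by Pearson's r of log2(FPKM + 1) over 11578 genes of at least 1 FPKM on average, and by the r of deviations from group means. These values share tumors and tissue makeup, and carry no test. Arg2 was most like Sgms2 (r = 0.994, deviations 0.893), Slpi (0.993, 0.851) and Ankrd33b (0.992, 0.863). The mean of Slpi, a secreted protease inhibitor, was 112 FPKM in α-KG tumors and 2.32 to 3.72 in the other groups. Arg1 was most like Plin2, a lipid droplet protein (0.959, 0.856), Ccl9 (0.950, 0.892) and Spp1, or osteopontin (0.939, 0.907). Nos2 was most like Birc3 (0.982, 0.938), Apobr (0.979, 0.914) and Traf1 (0.978, 0.877), and Slc7a2 like Ms4a8a (0.968, 0.916), Traf1 (0.963, 0.856) and complement C3 (0.963, 0.875). Ass1 was most like Tnip1 (0.924, 0.896), Nadk (0.914, 0.879) and Rela, a subunit of NF-κB (0.913, 0.861). Kmo averaged under 1 FPKM and was not compared.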

How the data were processed

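Poly(A) RNA of 16 tumors was sequenced on a DNBSEQ platform from libraries with a dUTP-marked second strand. The authors deposited 1 table of FPKM values with 2 decimals for 18929 genes, and no column was left out. The submitters' processing notes name HISAT, Bowtie2 and mm10. Versions, annotation and any normalization between tumors are not given in the sources used here. Of 109 low values in 44 sparse genes, 38.5% lay within 0.15 of a whole step, where chance gives 30%, so reads could not be recovered and depth is unknown, which makes values under about 1 FPKM the least precise.

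Groups were taken from the treatment labels. The 12850 genes that reached 0.5 FPKM in 4 or more tumors were analyzed as log2(FPKM + 1) with limma 3.58.1 (trended eBayes) in R 4.3.3, using a model with a mean for each of the 4 groups. The Benjamini-Hochberg correction covered every tested gene (threshold 0.05). The interaction subtracts the anti-PD1 effect seen without α-KG from the one seen with it. The fit was tested on simulated data. Nothing in the labels joins tumors to cages, litters or batches, so p values measure the spread between these tumors.

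The 9 genes and all gene lists were chosen with earlier results of these data known. All 9 were named in every comparison. Genes of the 3 other pathway lists could be named when called and among the 5 largest changes of their list, or when below the filter. Alternatives were a pseudocount of 0.1, no filter, quantile normalization, equal FPKM sums, a replicate block, a leukocyte covariate, leaving out each tumor, and, added after seeing the data, a neutrophil covariate.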

Additional observations from a re-analysis of the deposited data

Results flagged for a closer look

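For 9 genes the effect of anti-PD1 differed with and without α-KG by limma's interaction term. They were 2 of the 6 tested genes studied here, 3 of 28 other arginine genes, 3 of 15 other tryptophan genes and 1 of 12 amino acid shortage genes. Over all 12850 genes, 7.99% had a positive and 3.13% a negative call. Both calls among the 6 were negative. The 28 arginine genes had 2 positive and 1 negative, the 15 tryptophan genes 1 positive and 2 negative, and the 12 shortage genes 1 positive call. The lists are small, and whether they were called more often than all genes was not tested. The differences on the log2 scale were -2.89 for Arg1 (adjusted p = 0.0036) and -3.49 for Arg2 (adjusted p = 1.68e-05), the arginases described above. Among other arginine genes they were -1.68 for Smox (adjusted p = 0.00073), 0.38 for Asl (adjusted p = 0.0396) and 0.45 for Sms, the spermine synthase (adjusted p = 0.043). In the tryptophan list they were 0.83 for Afmid, which follows Ido1 (adjusted p = 0.00884), -0.99 for Haao (adjusted p = 0.0217) and -0.98 for Slc7a8 (adjusted p = 0.0241). The stress factor Ddit3 had 0.96 (adjusted p = 0.00891). The calls of Asl (0.32 to 0.39, adjusted p from 0.0542 to 0.0857) and of Sms (0.38 to 0.47, adjusted p from 0.0501 to 0.0917) were each lost in 11 of the 16 fits that left out 1 tumor, and that of Slc7a8 without anti-PD1 tumor 4 (-0.95, adjusted p = 0.0549). For Asl the call stayed only without vehicle tumor 3, anti-PD1 tumor 2 or 3, or α-KG tumor 1 or 2, and for Sms only without vehicle tumor 1 or 2, anti-PD1 tumor 2, α-KG tumor 1 or tumor 4 of the combination. Neutrophil marker RNA, which summed to 1092 to 2896 FPKM in the α-KG group and at most 115 elsewhere, moved with Arg2 and Smox. With the neutrophil covariate limma called 0 of all 12850 genes for the interaction. The part of neutrophil RNA in these differences cannot be told apart from that of the treatment in this design.

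In 8 of 122 sets of 4 tumors examined, 1 tumor stood far from the other 3 by Dixon's criterion, of which chance gives about 1 in 20. Of these, 4 were at the bottom of the scale: Ido1 in α-KG (0.05 FPKM, the others at 0), Kynu in α-KG (0.24 FPKM), and Il4i1 in vehicle (0.10 FPKM) and in anti-PD1 tumors (0.10 FPKM). The others were Sat1 in anti-PD1 (lowest tumor 30.9 FPKM), Oat in α-KG (lowest 130.2 FPKM), the polyamine oxidase gene Paox in α-KG (highest 8.56 FPKM) and Tiparp, a target of the aryl hydrocarbon receptor, in α-KG (highest 35.2 FPKM). In the sets named for Ido1 and Il4i1, the other 3 tumors were at 0. Any value above 0 meets the criterion there, so the rate of 1 in 20 does not apply to them.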

How the results depend on the processing

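Of the 6 tested genes, Arg2 kept its 4 calls (α-KG against vehicle and against anti-PD1, the combination against α-KG, and the interaction) under every alternative except the neutrophil covariate. The leukocyte covariate left 1 of 5 calls against vehicle for α-KG (neutrophil covariate 0), 0 of 4 for α-KG + anti-PD1 and 0 of 1 for anti-PD1. The anti-PD1 call (Arg1) was also lost with no filter (0) and with the replicate block (0). For the combination against anti-PD1 (2 genes) the count was 1 with no filter, 1 with quantile normalization, 0 with the leukocyte and 1 with the neutrophil covariate. Against α-KG (1 gene) it was 2 with quantile normalization, 2 with equal sums, 3 with the leukocyte and 0 with the neutrophil covariate. The neutrophil covariate also gave 0 for α-KG against anti-PD1 and for the interaction. Where a covariate left 0 calls over all genes, as given below, a count of 0 here is not particular to these genes. Marker levels follow the groups, so a covariate and a treatment cannot be told apart.

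Over all genes, limma called 96 for anti-PD1 against vehicle, and 312 with a pseudocount of 0.1, 5 with no filter, 29 with equal sums, 0 with the block (1971 at an unadjusted p under 0.05) and 0 with the leukocyte covariate (565). For α-KG against vehicle it called 2048, and 1246 with equal sums, 308 with the leukocyte and 0 with the neutrophil covariate (1332 unadjusted). For the combination against vehicle it was 5827, and 0 with the leukocyte covariate (588 unadjusted). Against anti-PD1 the combination had 1987, 4234 with equal sums and 0 with the leukocyte covariate (1783 unadjusted). Against α-KG it had 4918, and 0 with the neutrophil covariate (922 unadjusted). α-KG against anti-PD1 had 406, 988 with the leukocyte and 0 with the neutrophil covariate (821 unadjusted), and the interaction 1429, 2394 with equal sums, 2785 with the leukocyte and 0 with the neutrophil covariate (1077 unadjusted).

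In the other lists against vehicle, the 1 tryptophan gene of anti-PD1 became 0 with no filter, equal sums, the block or the leukocyte covariate. For α-KG, the 4 arginine genes became 2 with equal sums, 2 with the block, 1 with the leukocyte and 0 with the neutrophil covariate, and the 3 tryptophan genes 0 with either covariate. For the combination, the 13 arginine and 8 tryptophan genes became 0 with the leukocyte covariate.

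Leaving out 1 tumor at a time gave these ranges. Against vehicle, the members called numbered 0 to 1 (anti-PD1), 4 to 5 (α-KG) and 2 to 5 (combination), arginine genes 0 to 3, 2 to 5 and 8 to 14, tryptophan genes 0 to 1, 2 to 4 and 4 to 10, and all genes 0 to 883, 1256 to 2621 and 4263 to 6639. The combination had 0 to 4 members and 228 to 2927 genes against anti-PD1, and 1 to 2 members and 3438 to 5206 genes against α-KG. α-KG against anti-PD1 had 2 to 4 and 257 to 420, and the interaction 2 to 3 and 698 to 2362.

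Directions turned in these cases. With the leukocyte covariate the log2 difference against vehicle was -0.43 for Arg1, -0.26 for Ass1, -0.26 for Kmo, -0.14 for Gatm, 0.0295 for Srm and 0.0642 for Oat in the combination. It was -0.83 for Kmo, -0.0042 for Sat1 and -0.19 for Gch1 in α-KG, and -0.22 for Nos2, -0.38 for Ass1, -0.23 for Slc7a2 and -0.42 for Kmo in anti-PD1. For α-KG against anti-PD1 it was -0.55 for Arg1 and -0.41 for Kmo, and for the interaction 0.11 for Ass1 and 0.0179 for Slc7a2. With the neutrophil covariate, Ass1 had -0.0171 in anti-PD1 and -0.39 in α-KG against vehicle, 0.73 for the combination against α-KG, -0.37 for α-KG against anti-PD1 and 0.75 for the interaction. Nos2 had 1.48 for the combination against α-KG and 0.49 for the interaction, Slc7a2 0.50 and 0.32, Gatm -0.12 and Tiparp 0.35 for the combination against α-KG, and Kmo -0.31 for the interaction. Arg2 had -0.0613 for the combination against anti-PD1, Smox -0.0189 for α-KG against anti-PD1 and Asl 0.0107 for α-KG against vehicle. Quantile normalization gave Arg2 -0.12 for the combination against anti-PD1, and a pseudocount of 0.1 gave Kmo -0.21 for the interaction. For α-KG against anti-PD1, Arg1 had -0.03 without anti-PD1 tumor 2 and -0.0493 without α-KG tumor 1. Leaving out single tumors, Arg2 ranged from -0.0504 (tumor 4 of the combination left out) to 0.244 (tumor 2 of the combination left out) in the combination against anti-PD1. The cause was not tested.

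Tumors share replicate numbers across groups, and no pairing by number was seen: 9 of 24 same-numbered pairs had a correlation of deviations over 0.1 (range -0.642 to 0.411), and 0 of 16 tumors matched their own number best in every other group. A weak shared effect, or one limited to few genes, could be missed in this way. With the replicate block, 0 members were called for anti-PD1 against vehicle (Arg1 adjusted p = 0.0822), 5 for α-KG and 4 for the combination.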
